A study of Mus musculus with 10 samples.

Results

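Open chromatin was mapped by ATAC-seq around Sox2, the gene of an HMG-box transcription factor of pluripotent and neural progenitor cells, during the reprogramming of mouse fibroblasts. Sox2 lies on chromosome 3 from 34649995 to 34652461 on the plus strand (GRCm38, the mm10 build). All peaks from 150 kb before to 150 kb after the gene were taken from the 10 peak lists and merged where they overlapped by at least 1 bp, which gave 50 elements of 208851 regions in the whole series. Of these, 48 lay outside the gene. The other 2 overlapped it and were kept apart, because the reprogramming cassette carries Sox2 sequence.

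The study had 2 libraries at each of 5 stages. Fibroblasts before induction (MEF) came from mice of the strain C57BL/6 x 129 whose Col1a1 locus held a polycistronic cassette of Oct4, Klf4, Sox2 and Myc and whose ROSA26 locus held the activator M2rtTA, and were kept in MEF medium without doxycycline. DAY3, DAY6 and DAY9 were cells of the same genotype after 3, 6 and 9 days in ESC medium with 1 µg/ml doxycycline and 50 µg/ml ascorbic acid, unsorted at DAY3 and sorted for SSEA1 at DAY6 and DAY9. ESC was the embryonic stem cell line V6.5 of the same strain background, unsorted, without the cassette and grown on irradiated feeder cells. The change to ESC medium with doxycycline and ascorbic acid therefore went with the step from MEF to DAY3. Sorting went with DAY6 and DAY9, and the lack of the cassette, of doxycycline and of ascorbic acid with ESC. These cannot be told apart from the stage. These were bulk libraries, so fewer cells with an open element and a less open element in each cell cannot be told apart.

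In mouse embryonic stem cells, Sox2 is known to depend on a cluster of enhancers about 100 kb downstream, the Sox2 control region, which contacts the promoter over that distance. Enhancers close to the gene on both sides are known to act in neural tissue and in reporter assays in stem cells. The long noncoding RNA Sox2ot, on the same strand, starts far upstream and contains the whole of Sox2 in its span. SOX2 works with OCT4 on composite DNA motifs, and their own genes are among the targets.

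The promoter of Sox2 is shown because a peak in each of the 10 libraries covered it. The sequence is that of RefSeq (GRCm38.p6, plus strand, chr3:34649745-34649994), the 250 bases before the gene start, with capitals at the matches of the words searched.
Sox2 promoter: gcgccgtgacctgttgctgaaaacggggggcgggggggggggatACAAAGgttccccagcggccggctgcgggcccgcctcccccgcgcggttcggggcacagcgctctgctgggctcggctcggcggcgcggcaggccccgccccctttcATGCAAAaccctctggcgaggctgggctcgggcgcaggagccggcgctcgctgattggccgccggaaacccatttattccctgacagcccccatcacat
An octamer-like word, ATGCAAA, of the kind bound by OCT4, began 99 bases before the start, and at least 1 copy on either strand was present in 4.63% of the 32851 RefSeq promoters of 300 bases. The SOX-like word CTTTGT was present 1 time, on the minus strand (printed as ACAAAG), with its first printed base 206 bases before the start, and 18.7% of the promoters held it. The KLF-like word CACACCC (7.95% of promoters) and the AP-1-like word TGACTCA (5.20%) did not occur on either strand in the 300 bases searched, and the matches did not overlap. GC content was 66.3%, against a median of 52.7% over all promoters.

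Relative depth was the background pileup, the commonest expected pileup recovered from the deposited values of each list, and ran from 2.327 in DAY6 replicate 2 to 8.322 in MEF replicate 2. At background, the weakest peak that could reach the p-value limit of the lists had a fold of 2.57 in MEF replicate 2 and of 3.61 in DAY6 replicate 2. Here fold is the authors' ratio of the summit pileup to the pileup expected locally, with 1 added to each. The addition lowers the ratio more in shallow lists. The spread between the summit pileups of a pair of libraries, in units of counting noise, was 1.33 for DAY3 and 1.42 for DAY9, against 3.61 to 8.11 for the other stages. The DAY3 pair and the DAY9 pair were therefore taken as 1 sample each, by their mean, leaving 8 samples. Nothing in the labels says that libraries of a stage came from separate animals or cultures. A peak within 2.5 kb was present for 10 of 10 fibroblast markers in both MEF libraries, 7 and 8 at DAY3, 7 and 7 at DAY6, 8 and 8 at DAY9, and 6 and 7 in ESC. Postn and Col6a3 had none in either ESC library, and Postn had none at DAY3 or DAY6 either. Of 10 pluripotency markers it was 4 and 6 in MEF, 6 and 4 at DAY3, 10 and 8 at DAY6 and 10 in each DAY9 and ESC library. Nanog and Prdm14 had none in MEF, DAY3 or DAY6 replicate 2. The part of feeder or unconverted cells in the results below was not tested.

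To find out how the neighbourhood of Sox2 opened, the elements outside the gene were counted in each library. A peak was listed at 8 and 9 of the 48 elements in MEF replicate 1 and 2, 7 and 6 at DAY3, 15 and 11 at DAY6, 14 and 16 at DAY9, and 26 and 19 in ESC. The ESC libraries were above all others and the DAY3 libraries below all others, while DAY6 and DAY9 overlapped. The mean number was 8.5 ± 0.707 (SD, n = 2) in MEF, 6.5 at DAY3 (n = 1), 13 ± 2.83 (SD, n = 2) at DAY6, 15 at DAY9 (n = 1) and 22.5 ± 4.95 (SD, n = 2) in ESC. The number followed the order of the stages (exact two-sided permutation test of the Jonckheere-Terpstra statistic, with 5040 arrangements of 8 samples, p = 0.00992, adjusted over the 4 trends tested p = 0.0175), with a difference of 14 elements between ESC and MEF. From MEF to DAY9 alone the trend missed the threshold of 0.05 (exact permutation test, p = 0.161), and likewise when peaks had to cover 50% of an element (exact permutation test, p = 0.0548).

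**Figure D1:**
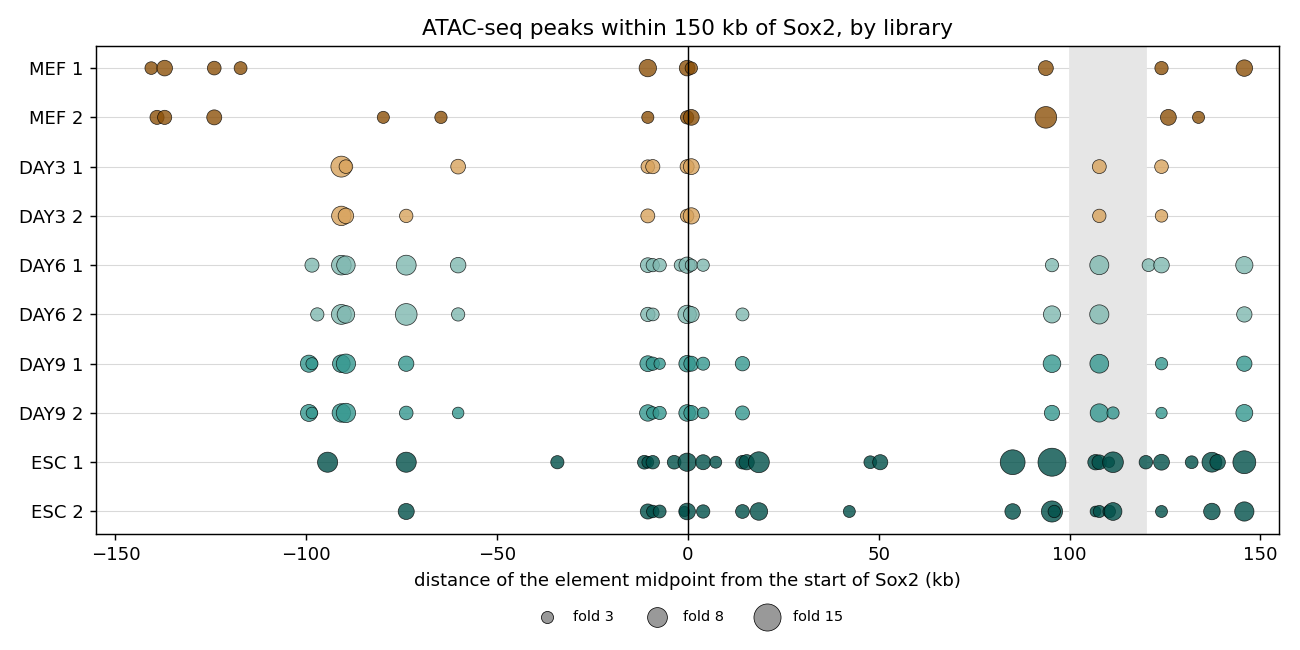
Peaks around Sox2 in each library. The x axis is the distance of the element midpoint from the gene start in kb (negative upstream), each row is a library, and circle area is proportional to the authors' fold; the grey band is the distal control region, 100 to 120 kb downstream, where MEF has no peak and each ESC library has 4.

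The base pairs under peaks in the window followed the stages as well. They were 4098 and 3734 in MEF, 3440 and 3274 at DAY3, 8099 and 4888 at DAY6, 7497 and 8135 at DAY9, and 12172 and 9616 in ESC. ESC covered 6978 bp more than MEF (exact permutation test as above, p = 0.0175, adjusted p = 0.0175). Without ESC the exact permutation p was 0.256, and without DAY6 replicate 2 or either ESC library it was 0.0619.

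Since lists differed in length, the share of the 48 elements with a peak was set against the share of all 208851 regions with a peak in the same library. In MEF the Sox2 window lay below the whole series, with 16.7% against 34.9% in replicate 1 and 18.8% against 29.9% in replicate 2. In ESC it was 54.2% against 40.3% in replicate 1 and 39.6% against 41.7% in replicate 2, so the ESC libraries fell on opposite sides of the series' share. The difference was -14.7 ± 4.98 percentage points in MEF (SD, n = 2), -7.61 at DAY3, -1.72 ± 3.80 at DAY6 (SD, n = 2), -5.21 at DAY9 and 5.89 ± 11.4 in ESC (SD, n = 2). It was ordered by stage (exact permutation test, p = 0.0175, adjusted p = 0.0175), and the exact permutation p was 0.0619 without either MEF library and 0.0746 within 100 kb of the gene. The 48 elements, like all regions, are the union of these same lists. Elements that entered through ESC alone raise the window share of ESC and lower that of MEF. Part of the difference can therefore follow from how the elements were chosen.

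**Figure D2:**
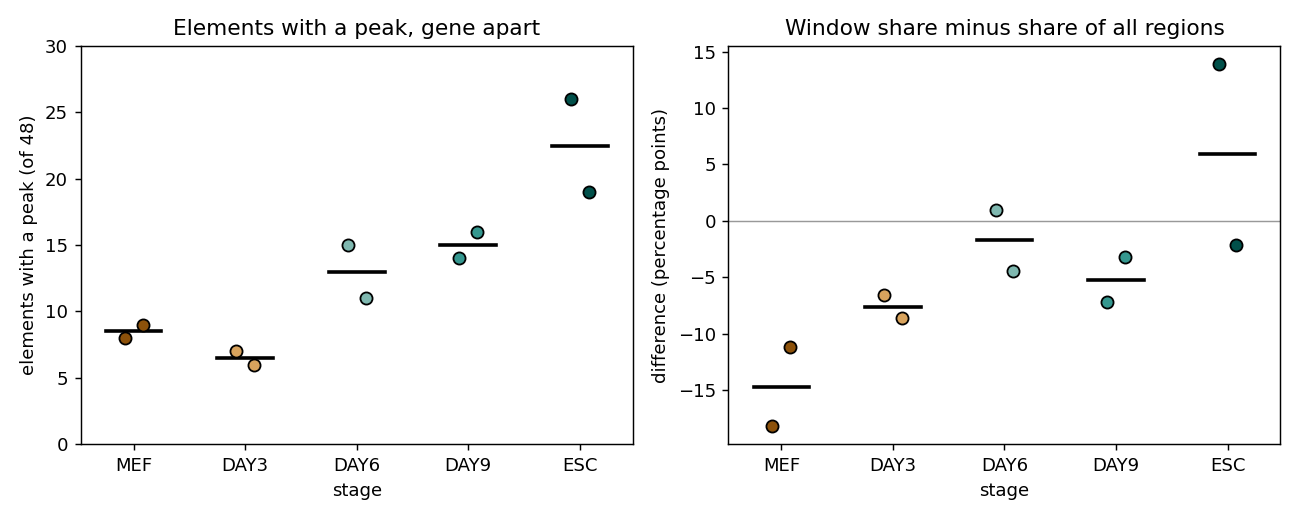
Left, number of the 48 elements outside the gene with a peak (y axis) at each stage (x axis). Right, percent of these elements with a peak minus the percent of all regions of the series with a peak, in percentage points; points are libraries and bars are means. ESC holds the 2 highest counts, 26 and 19, and the MEF libraries the 2 lowest differences.

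Of the 48 elements, 12 (25.0%) were gained, with a peak in both ESC libraries and neither MEF library, where 15.9% of all regions met this rule. Another 3 (6.25%) were lost, with a peak in both MEF and neither ESC library, against 11.1% of all regions. With 2 libraries against 2 an exact test cannot pass the threshold, so these counts carry no test. Leaving out a library relaxes the rule, so the counts can only stay or rise: without ESC replicate 2 it called 23 gained elements (26.3% of all regions), and without MEF replicate 1 or 2 it called 8 or 5 lost elements (17.9% and 20.1% of all regions). The peak names in the lists are numbered with gaps, so some called peaks may be missing from them, and the part of this and of depth in an absent peak was not tested.

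The gained elements were dated by the first stage with a peak in both libraries. It was DAY3 for 1 of them, DAY6 for 3, DAY9 for 2 and ESC for 6. The shares of all gained regions first listed at DAY3, DAY6 or DAY9 were not computed. The dates depend on the rule: elements 73.8 and 9.2 kb upstream already had a peak in 1 DAY3 library. Those 4.0 and 14.3 kb downstream had one in 1 DAY6 library. Thus 6 of 12 were open at an earlier stage by this rule. The other 6 had a peak in both libraries of no earlier stage, as had 60.9% of the 33275 gained regions of the series. Of these 6, the element 111.4 kb downstream also had a peak in 1 DAY9 library. Over all elements, the 6 were 6 of 48, beside 9.71% of all regions. Among the top 50% of each list by score, 3 of 8 gained elements were open before ESC.

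The distal control region, taken as 100 to 120 kb downstream of the gene start, held 4 elements. All 4 were among the gained, where 15.9% of all regions were gained. It had no peak in either MEF library, 1 in each DAY3 library, 1 in each DAY6 library, 1 and 2 at DAY9, and 4 in each ESC library. The number rose with stage (exact permutation test, p = 0.00119, adjusted p = 0.00476). The elements at 106.8 and 110.4 kb entered through ESC alone, which raises the ESC count. Part of this trend can therefore follow from how the elements were chosen. From MEF to DAY9 alone the exact permutation test gave p = 0.0167. That result rested on the 107.8 kb element, listed in each library from DAY3 on, and on 1 weak peak in DAY9 replicate 2. Between DAY3 and DAY9, therefore, the number changed by that weak peak only. This region is known as an enhancer from work on embryonic stem cells, so peaks there in ESC are not independent evidence of its role. MEF replicate 2, without a peak there, had the highest background pileup of the 10 lists.

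The first of the 4 to be listed lay 107.8 kb downstream (chromosome 3, 34757325 to 34758298). Its fold was 3.97 and 3.67 at DAY3, 7.41 and 7.51 at DAY6, 7.24 and 6.81 at DAY9, and 4.40 and 3.02 in ESC. The lower fold in ESC went with a larger expected pileup. The summit pileup was 24 and 22 at DAY3, 32 and 24 at DAY6, 66 and 58 at DAY9, and 103 and 63 in ESC. Divided by the background pileup of each list, that was 4.52 and 4.17 at DAY3, 9.27 and 10.3 at DAY6, 9.01 and 7.87 at DAY9, and 29.6 and 11.5 in ESC. The DAY3 peaks were weak: the smallest pileup that could be listed at background was 18 in both DAY3 lists. In those lists 65.7% and 73.3% of peaks had a p-value at least as low. The expected pileup, which the caller raises where the surroundings of a peak are themselves covered, equalled the list background at DAY3 and DAY6, was 1.13 and 1.04 times as high at DAY9, and 6.50 and 3.70 times in ESC. At this element, then, fold put ESC below DAY6 and DAY9, and the summit over background put it above them. In the whole atlas, 2634 regions (1.26%) had a peak in the same 8 libraries and no other.

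The strongest element of the region in ESC lay 111.4 kb downstream (34761119 to 34761702). Its summit pileup was 202 in ESC replicate 1 and 130 in ESC replicate 2, with a fold of 8.70 and 6.45. It had the lowest p-value of the window in both ESC libraries, and 3.36% and 8.61% of the peaks of those lists had a p-value at least as low. Before ESC it appeared in DAY9 replicate 2 alone, with a fold of 3.04 and a summit pileup of 25, near the smallest pileup of 21 that could be listed there at background.

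The remaining 2 elements of the region were listed in ESC alone. The one 106.8 kb downstream (34756547 to 34756995) had a fold of 4.84 in replicate 1 and 2.36 in replicate 2, and the one 110.4 kb downstream (34760019 to 34760699) 2.34 and 3.24. The lower fold at each, 2.36 and 2.34, belonged to peaks whose expected pileup was 3.62 and 6.58 times the list background and whose summit was 8.79 and 15.8 times the background. All 4 elements lay within 5.16 kb. The expected pileup is a local average that can take in these peaks themselves, and the pileup between them is not part of the lists.

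**Figure D3:**
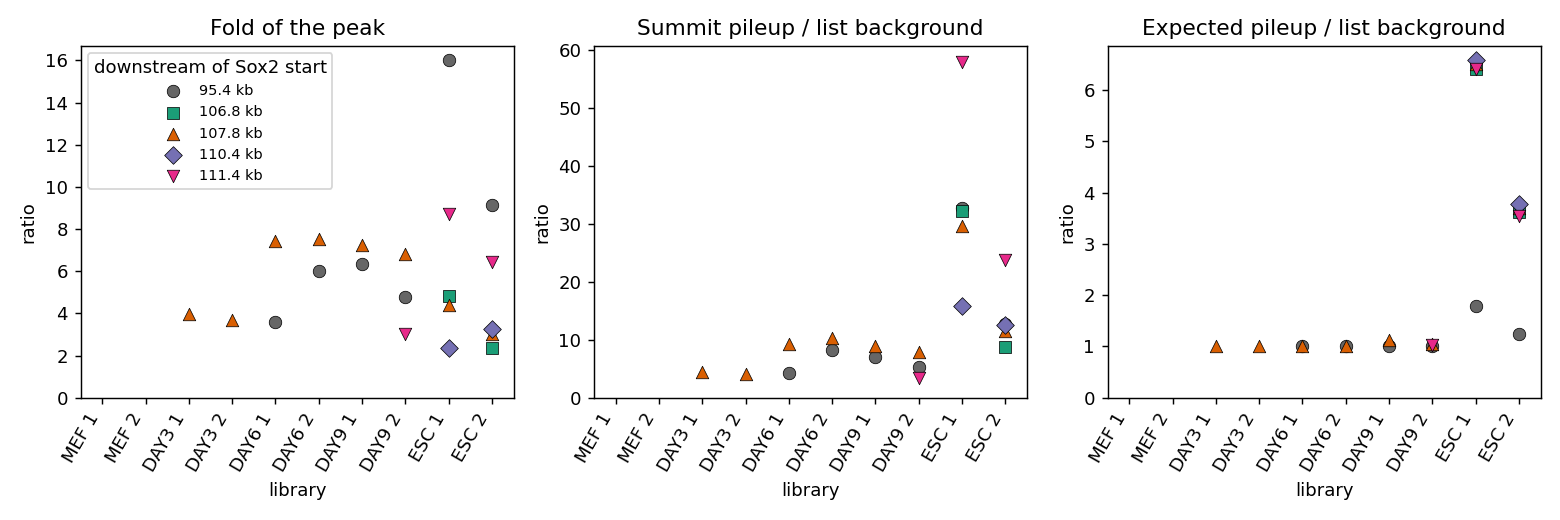
Gained elements 95.4 to 111.4 kb downstream of the Sox2 start, by library (x axis); no marker means no peak at that element. The y axes show the authors' fold, the summit pileup over the background pileup of the list, and the expected pileup over that background, all ratios; the 107.8 kb element has a lower fold but a higher summit over background in ESC than at DAY6 and DAY9.

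Just upstream of the control region, 3 further elements differed between stages. The element 95.4 kb downstream (34745102 to 34745742) had no peak in MEF or DAY3, a fold of 3.59 and 6.01 at DAY6, 6.36 and 4.78 at DAY9, and 16 and 9.13 in ESC. The value of 16 was the highest fold in the window. At 85.1 kb (34734786 to 34735410) a peak was listed in ESC alone, with a fold of 12.6 and 4.96. The element at 93.8 kb (34743470 to 34744109) showed the opposite pattern: it was a MEF peak, with a fold of 4.53 and 9.56, and had no peak in any later library. It ended 992 bp before the 95.4 kb element began, so an element listed in MEF alone and one listed from DAY6 on stood side by side. In MEF replicate 2 only 5.68% of peaks were at least as strong as this one.

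Within 10 kb of the gene, 7 elements were found and none had a peak in MEF. Of these, 2 were gained. The element 9.2 kb upstream (34640528 to 34641152) was listed in DAY3 replicate 1 with a fold of 4.12 and in all later libraries with a fold of 3.16 to 3.70. The element 4.0 kb downstream (34653627 to 34654263), where a proximal enhancer of Sox2 is known, had a fold of 3.11 in DAY6 replicate 1, 3.49 and 2.74 at DAY9, and 4.6 and 3.66 in ESC. Another, 7.4 kb upstream, was listed in DAY6 replicate 1, both DAY9 libraries and ESC replicate 2, with a fold of 2.64 to 3.64. The other 4 were each seen in a single library: 3.6 kb and 0.9 kb upstream and 7.3 kb downstream in ESC, and 2.0 kb upstream in DAY6 replicate 1. The highest fold in this zone was the 4.6 of ESC replicate 1.

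Of the elements that overlapped Sox2, the first spanned the gene start (34649421 to 34650262) and was open in each library. Its fold was 5.01 and 3.62 in MEF, 4.03 and 3.70 at DAY3, 5.41 and 6.92 at DAY6, 5.58 and 5.62 at DAY9, and 6.80 and 5.67 in ESC. The summit pileup over list background was 9.66 and 5.17 in MEF, 6.98 and 7.02 at DAY3, 17.1 and 25.8 at DAY6, 21.4 and 22.2 at DAY9, and 25.0 and 17.2 in ESC. On both scales the MEF and DAY3 libraries lay below those of DAY6, DAY9 and ESC. On fold the margin was narrow, with 5.01 in MEF replicate 1 against 5.41 in DAY6 replicate 1. The share of all regions with such an order was not computed, so it cannot be called particular to Sox2. The promoter sequence printed above lies wholly inside this element. A peak in all 10 libraries was listed at 7.35% of all regions of the series.

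The second element lay wholly inside Sox2 (34650291 to 34651412) and differed from the first in ESC. It had a peak in each MEF library (fold 3.15 and 5.09), each DAY3 library (5.13 and 5.39), each DAY6 library (3.02 and 5.07) and each DAY9 library (4.61 and 4.59), and in neither ESC library. Its summit pileup over list background was 5.86 and 7.45 in MEF and 9.05 and 10.4 at DAY3. At DAY6 it was 9.56 and 18.9, and at DAY9 18 and 18.3. The 8 libraries with the peak are those whose cells carry the cassette and the 2 without it are those that lack it. Fragments from the cassette and from the Sox2 gene itself cannot be told apart in these lists, so this peak is in none of the counts over the 48 elements. Such fragments can also enter the expected pileup of neighbouring peaks, which at the gene start was 1.34 to 1.76 times the list background in MEF and DAY3, 2.92 to 3.84 times at DAY6 and DAY9, and 3.43 and 2.89 times in ESC. A higher expected pileup raises the summit that a listed peak needs. Its part in the absence of the inner peak from ESC was not tested.

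**Figure D4:**
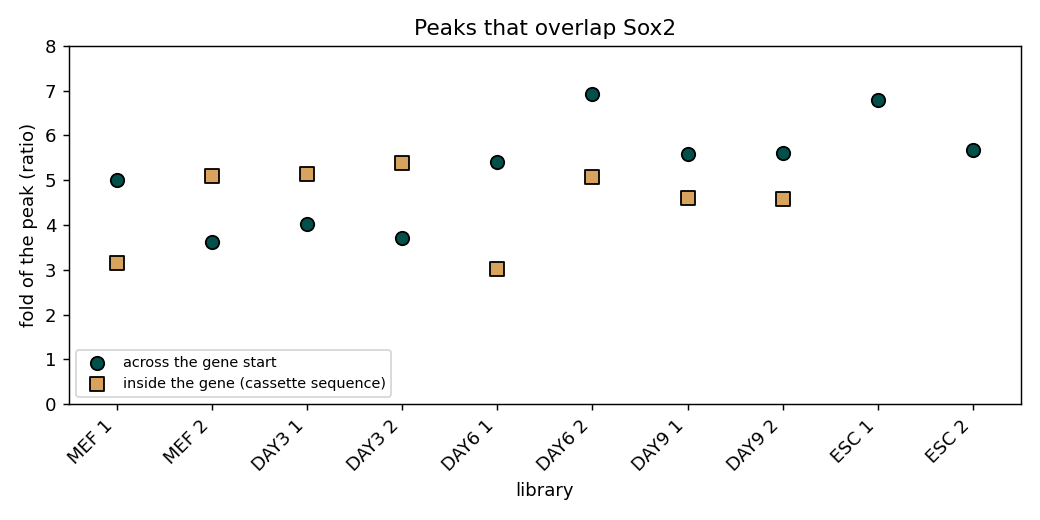
Authors' fold (y axis) of the 2 elements that overlap Sox2, by library (x axis). Circles are the peak across the gene start, present in 10 of 10 libraries; squares are the peak inside the gene, whose sequence the cassette carries, present in the 8 libraries with the cassette and in neither ESC library.

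Between 10 and 100 kb upstream the window held 13 elements, of which 8 overlapped Sox2ot and 5 lay before its start. The element 10.5 kb upstream (34639138 to 34639844) was open in all 10 libraries, with a fold from 2.86 in ESC replicate 1 to 6.17 in MEF replicate 1, and was the only one of the 48 with that pattern (2.08%, against 7.35% of all regions). The element 73.8 kb upstream (34575691 to 34576630) was gained, with a fold of 3.67 in DAY3 replicate 2, 8.08 and 9.62 at DAY6, 4.80 and 3.82 at DAY9, and 8.25 and 5.27 in ESC.

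This stretch also held the transient elements, those absent from MEF and ESC but listed in both libraries of at least 1 stage between them. There were 5 in the window (10.4%, against 9.61% of all regions), and all 5 lay 60.2 to 99.3 kb upstream. The element 89.6 kb upstream (34559920 to 34560813) covered the start of Sox2ot at 34560381 and had a fold of 3.81 and 4.93 at DAY3, 7.0 and 6.30 at DAY6, and 7.63 and 7.66 at DAY9. Its neighbour 90.8 kb upstream (34558839 to 34559566) had a fold of 8.96 and 7.73 at DAY3, 7.86 and 8.04 at DAY6, and 6.40 and 6.98 at DAY9. Both were thus open throughout the doxycycline time course and listed neither before it nor in ESC. DAY9 and ESC also differ in the cassette, doxycycline, ascorbic acid and sorting. The elements 99.3 and 98.5 kb upstream had peaks in both DAY9 libraries, at a fold of 6.00 and 5.85 and of 3.00 and 2.75, and the second also in DAY6 replicate 1 (4.04). The element 60.2 kb upstream had peaks in both DAY6 libraries (4.94 and 3.61), in DAY3 replicate 1 (4.44) and in DAY9 replicate 2 (2.75).

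Over 100 kb upstream, 5 elements were found and all had peaks in MEF alone. Those 137.1 kb (34512448 to 34513263) and 124.1 kb upstream (34525727 to 34526147) were lost, with a fold of 5.02 and 4.11 and of 3.85 and 4.61 in the MEF libraries. The elements at 140.6, 139.1 and 117.2 kb were each listed in a single MEF library. Together with the 93.8 kb element, these 2 made up the 3 lost elements of the window, and all 3 had already no peak at DAY3.

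Downstream, the gained elements outside the control region included those at 14.3 kb (34663821 to 34664827) and 18.6 kb (34668225 to 34668865), both inside the Sox2ot span. The first had a fold of 3.44 in DAY6 replicate 2, 4.23 and 4.04 at DAY9, and 3.78 and 3.89 in ESC. The second was listed in ESC alone, with a fold of 8.93 and 6.30. At 137.3 kb (34786868 to 34787627) another ESC peak had a fold of 8.03 and 5.57.

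Toward the downstream edge, the element at 145.8 kb (34795266 to 34796400) had a peak in MEF replicate 1 (5.56), both DAY6 libraries (6.06 and 4.81), both DAY9 libraries (4.80 and 5.85) and both ESC libraries (10.7 and 7.59), and in neither DAY3 library. The element at 124.1 kb, inside the noncoding gene Gm38509, was weak in each of its 8 libraries, with a fold of 2.63 to 5.13. Just outside the window, the nearest regions, 154.2 kb upstream and 161.9 kb downstream, had peaks in both MEF libraries alone, with a fold of 5.21 and 5.79 and of 7.49 and 4.61.

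The remaining members were seen once. A peak in a single library was all that 24 of the 48 elements had (50.0%, against 37.9% of all regions), with 11 of them in ESC replicate 1, 3 in ESC replicate 2, 2 and 5 in the MEF libraries, 2 and 1 in the DAY6 libraries and none in DAY3 or DAY9. Their fold was 2.18 to 8.25, with a median of 3.38. The highest, 8.25, belonged to a peak 94.4 kb upstream in ESC replicate 1. The excess of ESC replicate 1 over replicate 2 in the count of elements therefore lay among these single peaks: of the other elements, the libraries had 15 and 16.

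Taken step by step, MEF to DAY3 brought 3 gained elements (6.25%, against 5.43% of all regions) and 3 lost ones (6.25%, against 10.4%). The gained ones were the pair at the start of Sox2ot and the 107.8 kb element of the control region. From DAY3 to DAY6, 2 were gained (4.17%, against 5.29%), at 95.4 and 145.8 kb downstream, and none of the 48 was lost (1.50% of all regions). From DAY6 to DAY9, 1 was gained (2.08%, against 5.39%), at 99.3 kb upstream, and none was lost (0.956% of all regions). Between DAY9 and ESC, 5 elements were gained (10.4%, against 9.10%), all downstream at 18.6, 85.1, 106.8, 110.4 and 137.3 kb. At the same step 4 were lost (8.33%, against 9.24%), the upstream elements at 99.3, 98.5, 90.8 and 89.6 kb. The shares of each step were near those of all regions.

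By position, elements more than 10 kb downstream were 23 of the 48, and among them were 9 of the 12 gained and 1 of the 3 lost elements. Of all regions of the series, 15.9% were gained and 11.1% lost. Of the 9, 4 were those of the control region, which was chosen beforehand. In the annotation, 20 of the 50 elements overlapped the span of Sox2ot (34560381 to 34677993), 1 overlapped Mir1897, 3 Gm38509, 1 Gm3143 and 1 Gm34941. The control region overlapped no annotated gene. Exon and intron borders were not used here.

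Genes that act with Sox2 in pluripotent cells were examined by the same rule for gained and lost regions. Unlike for Sox2, regions that overlapped these genes themselves were counted. Of 13 such genes, 10 had at least 1 gained region within 10 kb, where 47.0% of 21887 protein-coding genes had one. A gene with more regions has more chances to hold a gained one. The 13 genes had from 4 regions (Klf2) to 31 (Esrrb and Nr5a2), and the comparison was not matched for this. Sox2 had 2 gained regions among the 7 outside the gene, beside the 15.9% of all regions that were gained. Esrrb, an orphan nuclear receptor gene, had 13 gained regions of 31, Tfcp2l1 8 of 17, Nanog 3 of 6 and Pou5f1, which encodes OCT4, 1 of 6. Klf4, Tbx3 and Stat3 had none. The cassette also carries Oct4 and Klf4, so its fragments can appear as peaks inside Pou5f1 and Klf4. A region with such a peak in MEF cannot be called gained, and the part of this in these counts was not tested. Lost regions were found at 4 of the 13 genes, Esrrb, Tfcp2l1, Nr5a2 and Stat3, and at 33.9% of all protein-coding genes.

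The number of window elements with a peak across the 10 libraries was compared with the same number around 20348 other protein-coding genes with at least 10 regions, as a description. The most alike were Ppp1r42 (Pearson r = 0.990), Saal1 (0.988), Zfyve9 (0.985), Saa3 (0.983) and Rln3 (0.983), and Saal1 and Saa3 are neighbours. All such counts share the libraries and the length of their lists.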

How the data were processed

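The authors deposited 1 ATAC-seq peak list per library, without pooling, in narrowPeak layout. Per the submitters' processing notes, Bowtie2 2.3.2, MACS2 2.1.1, deepTools 2.3.6 and build mm10 were named, with no role given; filters, duplicates and transposase offset are not given in the sources used here, and the numbers in the peak names run with gaps, so the lists may have been filtered after calling. Values per peak are the deposited score, fold (a ratio), −log10 p and −log10 q; they are the authors' and describe peaks within a list. Whole summit pileups and expected pileups were recovered from deposited fold and −log10 p (tolerance 0.01, for −log10 p up to 300) in at least 99.9969% of peaks; read totals are unknown.

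Gene positions and the promoter came from RefSeq GRCm38.p6. Distances run from the gene start to element midpoints. A library had an element if 1 bp of a peak overlapped it. Trends were tested by permuting the Jonckheere-Terpstra statistic (exact, two-sided), checked on simulated data (Python 3.11.15, scipy 1.17.1, pandas 2.3.3); 4 trends were adjusted by Benjamini-Hochberg. The noise ratio compared summit pileups of 100 to 200 between the libraries of a stage. Described one by one were elements in or within 10 kb of the gene, in the distal region, gained, lost, transient or present in all libraries; the rule for transient elements and the weaker elements named was chosen after values were seen. The members and lists were chosen with earlier results of these data known.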

Additional observations from a re-analysis of the deposited data

How the results depend on the processing

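The trend in elements (difference ESC minus MEF 14) was 12.5 when peaks had to cover 50% of an element (exact permutation test, p = 0.0548) and 6.5, DAY9 minus MEF, without ESC (exact permutation test, p = 0.161); covered base pairs without ESC differed by 3900 (exact permutation test, p = 0.256). Within 100 kb the share difference was 28.1 points (exact permutation test, p = 0.0746), with 7 gained and 1 lost elements; within 200 kb, 5 were lost. Lost elements numbered 0 in the top 50% of each list and 1 with equal numbers of peaks, and gained elements open before ESC 3 of 8 in the top 50%, on rebuilt elements and, chosen after seeing the data, on those of the full lists; fewer peaks enter both. The cause of the other changes was not tested. Leaving out 1 library gave 10.5 to 17.5 elements, 5700 to 8256 bp, 4 distal elements throughout, 17.7 to 30.1 points, 12 to 23 gained, 3 to 8 lost and 6 to 8 open before ESC. The other 54 values under alternatives stayed on their side of the threshold with the same sign, or within 1.5 times. Replicate numbers do not pair the samples (correlation of deviations -0.0095 to 0.0221 over 10 pairs of stages); with the replicate block the exact permutation p was 0.00958 for elements, 0.00917 for base pairs, 0.00167 for distal elements and 0.00833 for the share difference, so no call changed. Shallow lists limit weak elements: DAY6 replicate 2 could list none under a fold of 3.61 at background.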
